A study of Mus musculus with 36 samples.

Results

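Wild-type mouse whole brain was compared between postnatal day 21 (P21, around the age of weaning) and postnatal day 56 (P56, young adulthood). The members are the 5 P56 wild-type and 5 P21 wild-type libraries, chosen by the age and genotype in their labels, 10 of the 36 libraries of the series. All 10 came from untreated male C57BL/6J mice that carried no mutant allele per the labels. The series also holds 8 wild-type libraries at P3 and libraries labelled Myt1l heterozygote at each age, 5 of them at P21 and 5 at P56. Those heterozygote-labelled libraries, of the same strain, sex and tissue and also untreated, are used below as a set of mice that did not enter the wild-type comparison. The labels give no allele, litter or sequencing batch, and pups were weaned over a span of days that includes P21, so they do not tell whether the P21 mice were weaned. The descriptions of the P21 libraries carry a code whose meaning they do not give: it starts with 16 in wild-type replicates 2 and 3, with 11 in wild-type replicates 4 and 5 and heterozygote-labelled replicates 4 and 5, and with 24 in the other P21 libraries. The P56 descriptions carry none, so the code cannot enter the comparison of ages. Nothing says that the mice came from separate litters, so p-values measure the spread between these samples, and a batch of sequencing and age cannot be told apart.

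Myelin, the membrane that oligodendrocytes wrap around axons, is laid down fastest in the mouse forebrain in the weeks around weaning, and the brain makes its own cholesterol for it because plasma cholesterol does not cross the blood-brain barrier. Over the same weeks immature neurons extend axons, blood vessels stop sprouting, and the matrix around neurons changes from a juvenile to an adult form. Whole-brain RNA mixes all of these cells, so a fall can reflect fewer cells of a type or less RNA per cell, and these cannot be told apart here.

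Values are the authors' normalized counts, which are estimated reads per gene scaled between libraries and not corrected for gene length. Normalized counts summed to between 36806953 and 37840500 per library at P21 and between 34475862 and 38202024 at P56, and the sequencing depth is unknown. The neuronal gene Snap25 ranged from 72669 to 110244 over the 10 libraries, the astrocyte gene Slc1a2 from 39443 to 76464, and the oligodendrocyte gene Mbp from 116067 to 415668, so the defining brain markers were present in every library. P21 replicate 5 stood apart, with low glial and vascular genes. P56 replicate 3 was low in glial and cerebellar granule cell genes, and P56 replicates 2 and 4 were low in endothelial genes and high in ribosomal protein genes. The part of these libraries in each result was examined by leaving them out. Myt1l, the transcription factor named in the genotype label, had normalized counts of 7210 ± 620 at P21 and 6053 ± 1190 at P56 in wild-type brain, and of 7742 ± 511 and 6536 ± 566 in heterozygote-labelled brain (SD, n = 5 each), so its level did not separate the labelled genotypes at these ages.

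A gene is called when its Benjamini-Hochberg adjusted p from limma is under 0.05 over all genes tested. Of 17184 genes tested, 1688 (9.82%) were called: 628 rose (3.65%) and 1060 fell (6.17%) from P21 to P56. Most changes were small. The median log2 difference was 0.52 among the genes that rose and -0.48 among those that fell, and it was -0.0021 over all genes tested. A difference of at least 1 on the log2 scale was reached by 93 of the genes that rose (0.541%) and 137 of those that fell (0.797%). The 5 libraries of one age lay wholly above or below the 5 of the other for 684 genes higher at P56 (3.98%) and 1040 lower (6.05%). The balance of directions depended on the scaling: with all libraries brought to a common total, 970 genes rose and 739 fell, so 56.8% of calls were higher at P56 against 37.2% with the deposited scaling. That scaling moved the median of all genes by 0.05 on the log2 scale. The number of calls also rested on single libraries and was between 874 (without P21 replicate 3) and 2315 (without P56 replicate 3) when each was left out.

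**Figure D1:**
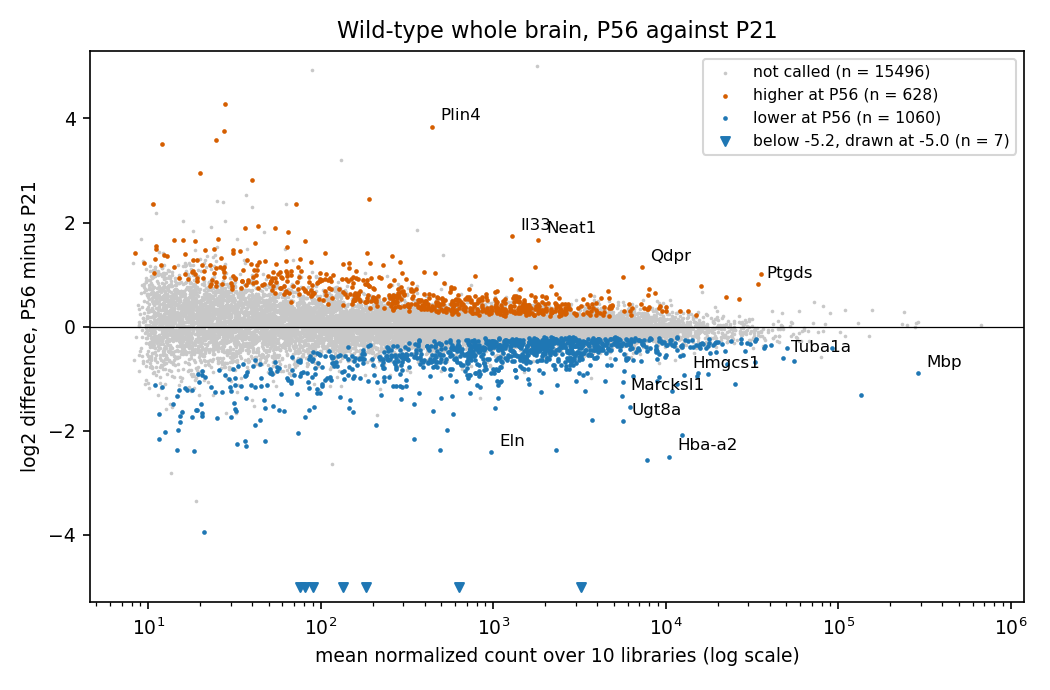
Each point is 1 of the 17184 genes tested; the x axis is its mean normalized count over the 10 libraries (log scale) and the y axis its log2 difference, P56 minus P21. Orange points (628) were called higher and blue points (1060) lower at P56, and the 7 triangles are genes under -5.2, drawn at the lower edge, 6 of which were listed at 0 in every P56 library.

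With the deposited scaling the genes that fell were more often strongly expressed ones. In the top quartile of mean level 9.33% fell and 2.47% rose, whereas in the lowest quartile 2.93% fell and 3.70% rose. Long intergenic noncoding RNAs rose more often (6.93%) than they fell (2.62%), and protein-coding genes fell more often (6.73%) than they rose (3.39%). These balances rest on the scaling in part. With a common library total 5.51% of protein-coding genes rose and 4.64% fell, so their balance turned, whereas the top quartile still fell more often (6.17%) than it rose (5.05%) and the long intergenic noncoding RNAs still rose more often (7.49% against 2.06%). With quantile normalization 2.82% of the lowest quartile rose and 3.68% fell, so its balance turned.

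Cholesterol synthesis genes fell together, and the spread within each age was small. Of 25 genes of the pathway and its regulation, 19 fell and none rose, with a median log2 difference of -0.50 against -0.0021 over all genes tested. Hmgcs1, the synthase that makes HMG-CoA for the mevalonate pathway, had 16476, 17231, 15852, 18270 and 15965 normalized counts in the P21 libraries and 8064, 9728, 9197, 9066 and 8240 in the P56 libraries. Every P21 library lay above every P56 library, by a wide gap. Hmgcs1 fell by 0.92 in log2 units (SE 0.07, limma adjusted p = 1.64e-05), and exact permutation of the libraries (two-sided, 252 assignments) reached p = 0.00794, the lowest value 5 against 5 allows.

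The fall covered the pathway from its first steps to its last. Sqle, the squalene epoxidase that opens the sterol branch, had 3438, 3501, 3237, 3431 and 3231 normalized counts at P21 and 1843, 1939, 1953, 1908 and 1936 at P56, and fell by 0.81 (SE 0.05, adjusted p = 4.72e-06). Dhcr7, which catalyses the final reduction to cholesterol, went from 1699 ± 117 to 956 ± 45.4 (SD, n = 5) and fell by 0.83 on the log2 scale (adjusted p = 2.20e-05). In none of these genes, Hmgcs1 included, did the ages overlap. Another 2 were chosen after their values were seen, for their roles: the lanosterol demethylase gene Cyp51 fell by 0.89 (adjusted p = 1.24e-04) and the mevalonate decarboxylase gene Mvd fell by 0.86 (adjusted p = 3.48e-04). Between 17 and 22 of the 25 genes fell under each alternative that kept the call rule, and none rose. At P3, Hmgcs1 had a level of 26289 ± 1398 (SD, n = 8), above both later ages, as did Sqle with 5899 ± 305.

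The promoters of these genes are shown because the pathway moved as a unit and its genes are known to be switched on by SREBP2, which binds sterol regulatory elements, often beside a CCAAT box bound by NF-Y. RefSeq promoters (GRCm38.p6) were matched for 17 of the 25 genes and for 12483 of the genes tested, and 250 bases before the start were searched on both strands. A form of the sterol regulatory element, TCACNCCAC, where N is any base, was found in 1 of 17, Hmgcs1, and in 1.20% of all matched promoters. With an A required before it, which is the form searched first, it was found in 0 of 17 and in 0.192% of all. Other forms of the element were not searched, so a promoter without a match may still hold one. The CCAAT box, read as ATTGG from the other strand, was found in 16 of 17 and in 4994 of the 12483. The form without the A and the CCAAT box were searched after the values were seen. In the 150 bases before the start that follow, capitals mark the matches to TCACNCCAC and to CCAAT or ATTGG. They are Hmgcs1 (chr13:119690201-119690350, plus strand), which holds both, Mvd (chr8:122443423-122443572, minus strand) with a pair of CCAAT matches, Cyp51 (chr5:4104698-4104847, minus strand) with 1, and Dhcr7 (chr7:143823017-143823166, plus strand), which fell too and has none in this stretch.
Hmgcs1: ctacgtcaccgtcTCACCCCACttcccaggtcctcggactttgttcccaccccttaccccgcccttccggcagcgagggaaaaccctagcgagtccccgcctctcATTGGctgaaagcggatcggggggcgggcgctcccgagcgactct
Mvd: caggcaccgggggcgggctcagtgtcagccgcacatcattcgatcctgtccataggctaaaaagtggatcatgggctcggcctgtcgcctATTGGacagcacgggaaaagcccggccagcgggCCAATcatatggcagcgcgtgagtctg
Cyp51: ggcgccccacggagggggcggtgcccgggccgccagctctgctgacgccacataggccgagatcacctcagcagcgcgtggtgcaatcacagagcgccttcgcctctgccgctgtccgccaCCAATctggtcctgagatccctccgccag
Dhcr7: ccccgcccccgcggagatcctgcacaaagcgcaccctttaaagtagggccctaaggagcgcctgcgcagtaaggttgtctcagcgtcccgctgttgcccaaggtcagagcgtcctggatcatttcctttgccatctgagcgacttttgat
A match is a description of the letters and shows no binding.

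Genes of newly formed oligodendrocytes, the cells that are starting to wrap axons, fell as a group. Of 24 tested, 16 fell and none rose (median log2 difference -0.73). Enpp6, a phosphodiesterase that marks oligodendrocytes at this stage, had 1619, 1641, 1704, 1699 and 956 normalized counts at P21 and 521, 625, 378, 585 and 439 at P56. P21 replicate 5 was the lowest of its age and still lay above every P56 library. Enpp6 fell by 1.57 in log2 units (SE 0.18, adjusted p = 2.39e-04; exact permutation p = 0.00794). Gpr17, a receptor that holds precursors back from maturing, went from 5790 ± 1495 to 1633 ± 242 (SD, n = 5) and fell by 1.79 (adjusted p = 1.72e-04). Casr, the calcium-sensing receptor, fell by 2.20, from 79.2 ± 22.4 to 16.1 ± 4.03 (SD, n = 5; adjusted p = 2.79e-04). Without P21 replicate 5 and P56 replicate 3 together, an alternative added after the data were seen, 20 of the 24 fell.

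Myelin and mature oligodendrocyte genes split. Of 35 tested, 17 fell and 2 rose (median log2 difference -0.79). Ugt8a, which makes the myelin lipid galactocerebroside, had 9779, 9752, 9221, 10026 and 5252 normalized counts at P21 and 2459, 3030, 2038, 2872 and 1998 at P56. The P21 libraries other than replicate 5 lay close together, and no library of one age reached the other. Ugt8a fell by 1.81 (SE 0.18, adjusted p = 1.19e-04; exact permutation p = 0.00794). Gsn, an actin-severing protein rich in oligodendrocytes, fell by 1.54, from 9224 ± 1963 to 3138 ± 539 (SD, n = 5; adjusted p = 1.92e-04), and Mog, a protein of the outer myelin face, by 1.06 (adjusted p = 0.00664). Mog overlapped between the ages, and its call was lost in the fit of all 36 libraries (adjusted p = 0.0889).

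Mbp, the protein that compacts myelin, spread widely at P56. Its normalized counts were 360830, 414939, 415668, 352512 and 285614 at P21 and 175202, 356518, 116067, 268954 and 147776 at P56. P56 replicate 2 overlapped the P21 range and P56 replicate 3 was the lowest. Mbp fell by 0.89 (SE 0.25, adjusted p = 0.0447), and the call was lost (adjusted p up to 0.106) without any 1 of 7 libraries, namely P21 replicates 1 to 4 and P56 replicates 1, 3 and 5, each taken alone.

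The 2 genes that rose, named after their values were seen, were Qdpr, which regenerates tetrahydrobiopterin, and Ptgds, which makes prostaglandin D2. Qdpr had 4523, 4479, 4170, 4733 and 3946 normalized counts at P21 and 8361, 15476, 6297, 12594 and 7914 at P56, so the lowest P56 library lay above the highest P21 library. Qdpr rose by 1.14 in log2 units (SE 0.20, adjusted p = 0.00449), and Ptgds rose by 0.81 (adjusted p = 0.0131), from 24573 ± 4121 to 43665 ± 10663 (SD, n = 5). In P56 replicates 2 and 4, the 2 libraries with the highest Qdpr, the myelin list as a whole also lay highest among the P56 libraries, at -0.08 and -0.26 in mean log2 value relative to the P21 mean, against -0.98 in replicate 3.

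Oligodendrocyte precursor genes moved the same way. Of 25, 12 fell and none rose (median log2 difference -0.58). Vcan, the juvenile matrix proteoglycan that precursors secrete, fell by 0.94 (adjusted p = 0.0135), from 1092 ± 293 to 557 ± 114 (SD, n = 5), with overlap between the ages. Pdgfra, the growth factor receptor that defines these cells, had 2551, 2347, 2440, 2210 and 1050 normalized counts at P21 and 1410, 1307, 1066, 1213 and 1404 at P56. It was not called (log2 difference -0.67, adjusted p = 0.0587), and P21 replicate 5 lay below every P56 library. Without that library 17 of the 25 precursor genes fell.

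**Figure D2:**
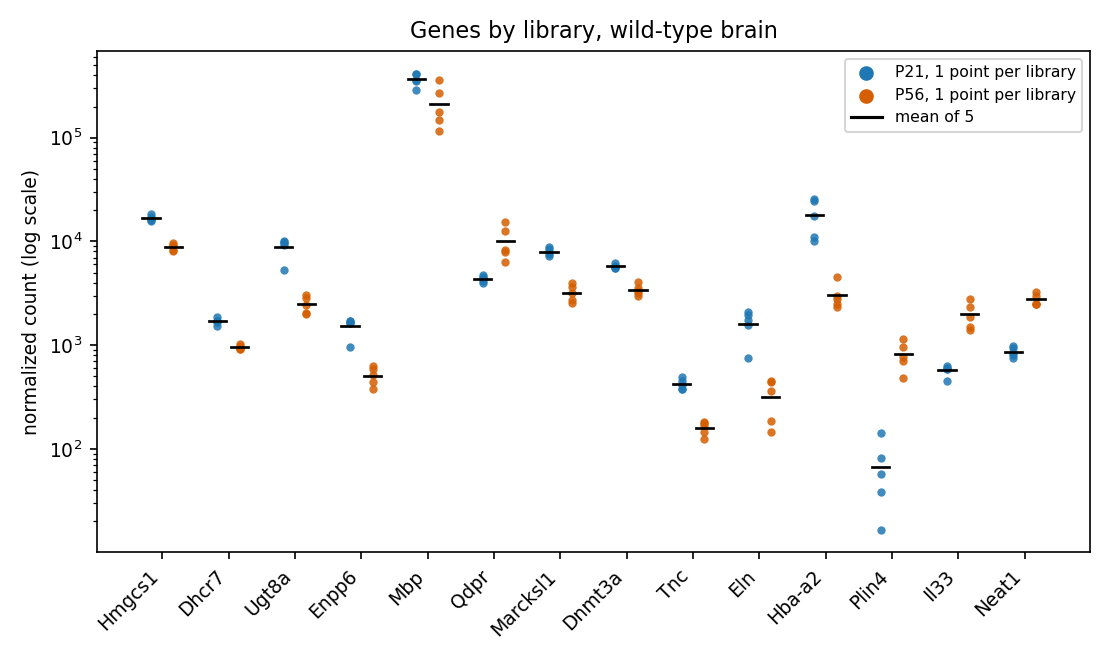
Normalized counts (log scale) of 14 genes in each wild-type library, with P21 in blue, P56 in orange and a bar at the mean of 5. The cholesterol genes Hmgcs1 and Dhcr7 form tight and separate groups, whereas Qdpr and Eln spread widely at P56, and Plin4 went from between 16.7 and 143 to between 483 and 1144.

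Across the 3 ages these genes did not follow one course. Ugt8a had a level of 460 ± 181 at P3 (SD, n = 8), 8806 ± 2008 at P21 and 2479 ± 470 at P56, so it was highest at P21. Qdpr had 1397 ± 148 at P3 and was highest at P56, whereas Hmgcs1 and Gpr17 differed again: Hmgcs1 was highest at P3, and Gpr17, at 2998 ± 479 at P3, was highest at P21. The P3 libraries entered no test here, since the P21 libraries would be shared.

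**Figure D3:**
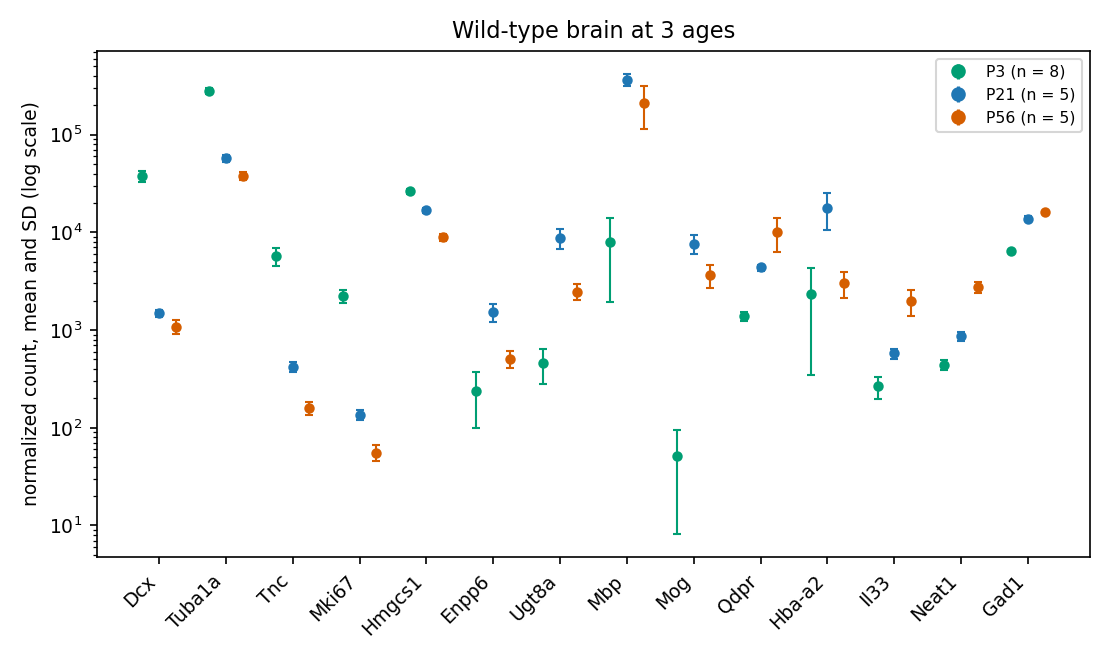
Mean normalized count (log scale) of 14 genes in wild-type brain at P3 (n = 8), P21 (n = 5) and P56 (n = 5), with bars of 1 SD. Dcx, Tuba1a, Tnc and Mki67 were lower at each later age, Enpp6, Ugt8a and Mog were highest at P21, and Qdpr, Il33 and Neat1 were highest at P56.

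Immature neuron and axon growth genes fell in 20 of 46 cases, and none rose (median log2 difference -0.36). Marcksl1, an actin-binding substrate of protein kinase C in growth cones, had 7532, 8796, 7826, 7318 and 8508 normalized counts at P21 and 2729, 3960, 2543, 3608 and 3187 at P56, and fell by 1.33 (SE 0.11, adjusted p = 3.35e-05). Sema6a, an axon guidance protein, fell by 1.26, from 2684 ± 378 to 1111 ± 62.6 (SD, n = 5; adjusted p = 1.64e-05). Among the tubulins of growing neurites Tuba1a fell by 0.61 (adjusted p = 9.30e-04), Tubb2a by 0.71 (adjusted p = 0.00116) and Tubb2b by 0.85 (adjusted p = 0.00635). Dpysl5, a collapsin response mediator of growth cones, fell by 0.53 (adjusted p = 5.29e-04), from 2306 ± 147 to 1591 ± 86.6. These tubulin and guidance genes did not overlap between the ages. Their list differed from the glial lists in that P21 replicate 5 was not low in it (0.06, against -0.03 to -0.0021 in the other P21 libraries, in mean log2 value relative to the P21 mean). Sema6a itself was low in that library, at 2023 normalized counts against 2742 to 2945 in the other P21 libraries.

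Dcx, the microtubule protein of migrating neurons, was already low at P21. It had 37343 ± 4675 normalized counts at P3 (SD, n = 8), 1488 ± 112 at P21 and 1087 ± 180 at P56 (SD, n = 5 each). Dcx fell by 0.47 on the log2 scale from P21 to P56 (adjusted p = 0.0209). The call was lost without P21 replicate 1 (adjusted p = 0.0528), without P21 replicate 2 (0.0565) and with a common library total (0.0624). Its 5 P56 libraries, at 1165, 975, 1255, 826 and 1211, all lay below the lowest P21 library, at 1374.

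Of 44 cell cycle genes 7 fell (15.9%, against 6.17% of all genes tested) and none rose (median log2 difference -0.18). The proliferation marker Mki67 had 129, 134, 157, 142 and 114 normalized counts at P21 and 50.1, 47.0, 47.7, 65.2 and 69.1 at P56, and fell by 1.27 (SE 0.16, adjusted p = 5.10e-04). Ube2c, which ends mitosis, fell by 1.16, from 40.8 ± 3.83 to 18.8 ± 7.75 (adjusted p = 0.0163), and Top2a, the topoisomerase of dividing cells, fell by 1.27 (adjusted p = 0.0139). Mki67 and Ube2c did not overlap between the ages, whereas Top2a did, with 104 in P56 replicate 4 against 90.1 in P21 replicate 5.

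The extracellular matrix of neurons and glia fell in 9 of 23 perineuronal net genes, and 1 rose (median log2 difference -0.31). Tnc, the juvenile glycoprotein tenascin C, had 453, 415, 378, 496 and 376 normalized counts at P21 and 183, 171, 126, 145 and 179 at P56. It fell by 1.40 (SE 0.13, adjusted p = 6.76e-05; exact permutation p = 0.00794), from a P3 level of 5705 ± 1140 (SD, n = 8). Ncan, the proteoglycan neurocan, fell by 0.94, from 8467 ± 404 to 4447 ± 738 (adjusted p = 1.72e-04), and Hapln1, a link protein of nets, by 0.83 (adjusted p = 2.00e-04). Hapln4, a link protein of perisynaptic matrix, was the gene that rose, by 0.39 (adjusted p = 0.0492). The adjusted p of Hapln4 was 0.05 or more in 11 of 24 alternatives, up to 0.181. Among these was the omission of any 1 of P21 replicates 1 to 4 or P56 replicates 1, 3 and 5.

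Of 22 tested histone and DNA methylation genes 3 fell (13.6%, against 6.17% of all genes tested) and none rose (median log2 difference -0.13). Dnmt3a, the de novo methyltransferase that methylates neuronal genomes after birth, had 5491, 6239, 5641, 5746 and 5588 normalized counts at P21 and 3542, 3181, 4103, 3004 and 3360 at P56, and fell by 0.75 in log2 units (SE 0.08, adjusted p = 2.39e-04). The methylcytosine dioxygenase Tet1 fell by 0.98, from 948 ± 117 to 479 ± 53.6 (SD, n = 5; adjusted p = 1.72e-04), and Tet3 by 0.68, from 3219 ± 127 to 2020 ± 278 (adjusted p = 6.01e-04). None of these 3 overlapped between the ages. The related dioxygenase gene Tet2 was not called (log2 difference 0.45, adjusted p = 0.0614).

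Of 43 presynaptic genes 8 fell (18.6%, against 6.17% of all genes tested) and 1 rose (median log2 difference -0.18), and of 50 postsynaptic glutamate genes 12 fell (24%) and none rose (median -0.20). With a common library total 5 and 3 fell, and 3 and 1 rose, so these counts depend on the scaling. They also depend on single libraries: leaving out 1 library gave between 4 and 12 presynaptic and between 3 and 19 postsynaptic genes that fell, both highest without P56 replicate 3. Erc1, a scaffold of the active zone, fell by 0.69 (adjusted p = 1.17e-04), from 3456 ± 122 to 2151 ± 166 (SD, n = 5). Grm2, a largely presynaptic glutamate receptor that was counted in the postsynaptic list, fell by 0.80 (adjusted p = 9.74e-04). Grin3a, a juvenile NMDA receptor subunit, fell by 0.54 (adjusted p = 4.94e-04). Rims3, another active zone protein, rose by 0.40, from 7948 ± 331 to 10525 ± 850 (adjusted p = 0.00424). None of these 4 overlapped between the ages, and each kept an adjusted p under 0.05 in all 24 alternatives. Among the alternatives was a minimum log2 difference of 1, which leaves the adjusted p as it was and which none of these 4 reached.

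The receptor and transporter genes best known for postnatal switches were not called. Grin2b, the juvenile NMDA receptor subunit, had 13869, 11277, 12400, 13224 and 15794 normalized counts at P21 and 8371, 4609, 16018, 5693 and 12255 at P56. The P56 libraries spread from less than all P21 libraries to more than all of them, and the log2 difference was -0.65 (SE 0.28, adjusted p = 0.157). Grin2a, the subunit of mature receptors, had a log2 difference of -0.08 (SE 0.20, adjusted p = 0.831), Gria1, an AMPA receptor subunit, of -0.04 (SE 0.06, adjusted p = 0.693), and Slc12a5, the chloride extruder KCC2, of -0.01 (SE 0.10, adjusted p = 0.945). The signs of Grin2a, Gria1 and Slc12a5 turned under some alternatives. Pvalb, a marker of fast-spiking interneurons, had 49.2 ± 18.4 normalized counts at P3 (SD, n = 8), 4579 ± 306 at P21 and 5158 ± 1494 at P56 (log2 difference 0.12, adjusted p = 0.700). Among 53 voltage-gated ion channel genes 1 fell (1.89%, against 6.17% of all genes tested) and none rose (median -0.14). It was the pacemaker channel gene Hcn4, which fell by 0.37 (adjusted p = 0.0144), a call lost with a common library total (adjusted p = 0.0527). Without P56 replicate 3, 8 of the 53 fell.

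**Figure D4:**
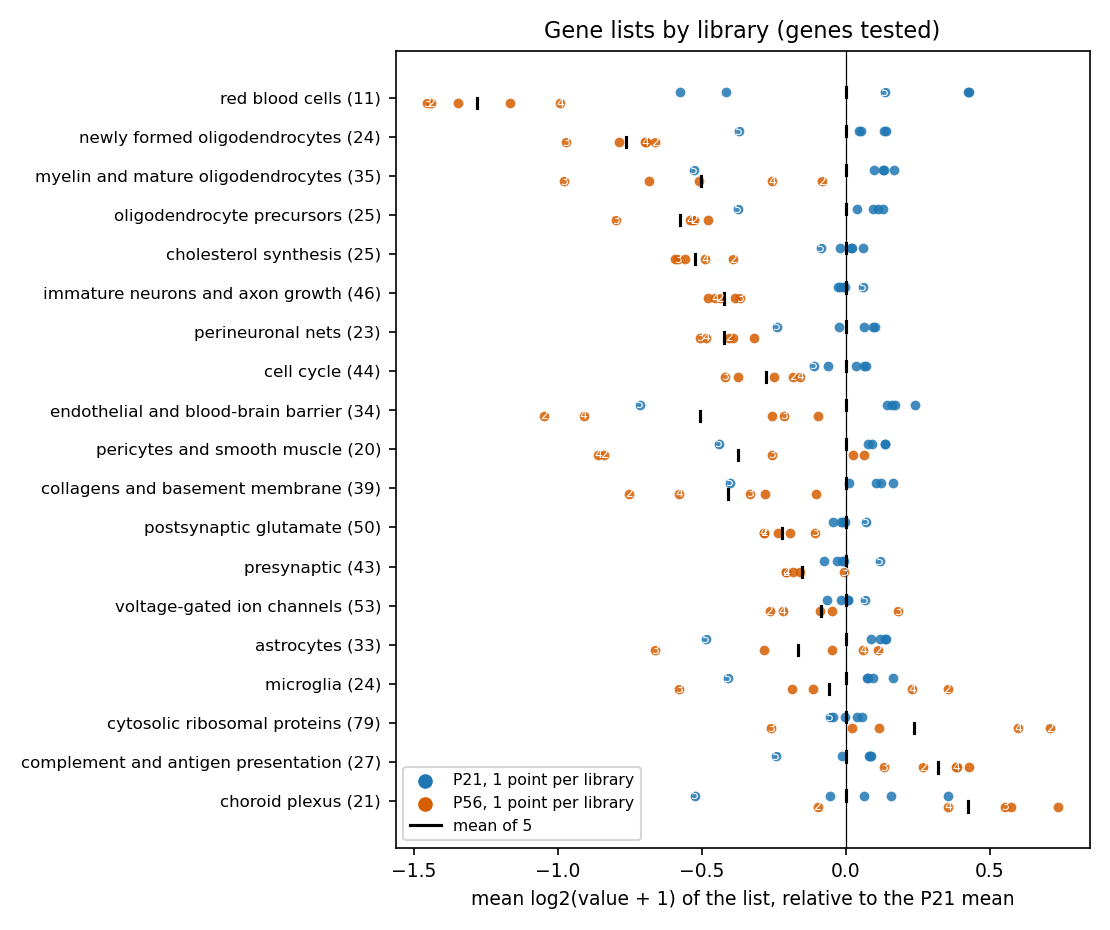
Mean log2(value + 1) of each gene list in each library, relative to the mean of the 5 P21 libraries, with P21 in blue, P56 in orange, a black bar at the mean of 5, and the number of genes tested in parentheses. Digits mark P21 replicate 5 and P56 replicates 2, 3 and 4. The cholesterol, newly formed oligodendrocyte, precursor, immature neuron, perineuronal net, cell cycle, postsynaptic, complement and red blood cell lists did not overlap between the ages. The endothelial, ribosomal and astrocyte lists spread with those libraries.

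Collagen and basement membrane genes fell more often than genes at large: 13 of 39 fell (33.3%, against 6.17% of all genes tested) and 2 rose (median log2 difference -0.43). Most vessel cell genes did not pass the test. Of 34 endothelial and blood-brain barrier genes 4 fell (11.8%) and none rose (-0.47), and of 20 pericyte and smooth muscle genes 2 fell (10%) and none rose (-0.37). Eln, the elastin of arterial walls, had 1936, 2066, 1751, 1573 and 750 normalized counts at P21 and 452, 145, 358, 186 and 441 at P56. P21 replicate 5 was again the lowest of its age, P56 replicates 2 and 4 were the lowest of theirs, and the ages did not overlap. Eln fell by 2.41 (SE 0.34, adjusted p = 0.00129) and kept its call in all 24 alternatives. Aplnr, the apelin receptor of sprouting endothelium, fell by 2.04, from 117 ± 28.2 to 29.7 ± 13.1 (SD, n = 5; adjusted p = 0.00194), and Kdr, the main VEGF receptor, fell by 1.37, from 706 ± 205 to 283 ± 120 (adjusted p = 0.0181). Kdr overlapped between the ages, with 438 in P56 replicate 1 against 362 in P21 replicate 5. Mcam, an adhesion molecule of vessel walls, fell by 1.05 (adjusted p = 0.00202).

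The basement membrane glycoprotein Nid1 fell by 1.37 (adjusted p = 7.12e-04), from 1533 ± 284 to 600 ± 177 (SD, n = 5). The type IV collagen gene Col4a1 fell by 1.13 (adjusted p = 0.0170), with overlap between the ages. The fibrillar collagen gene Col1a1 fell by 1.16 (adjusted p = 0.00276). Another 2 fibrillar collagen genes, named after their values were seen, rose in wild-type brain and were not called in the heterozygote-labelled libraries. Col11a1 had 458, 481, 388, 381 and 424 normalized counts at P21 and 654, 575, 953, 627 and 777 at P56, and rose by 0.73 (adjusted p = 0.00523). Col27a1 rose by 0.52 (adjusted p = 0.0303), a call lost in 7 of 24 alternatives, with adjusted p up to 0.0722, among them the omission of any 1 of P21 replicates 1, 3, 4 and 5 or P56 replicates 1 and 5. The fibrillar collagen gene Col24a1 is in none of the lists and was among the 15 genes that rose most. It had 149, 161, 143, 127 and 128 normalized counts at P21 and 476, 420, 387, 193 and 420 at P56, and rose by 1.36 (adjusted p = 0.00212).

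The vessel counts moved with 4 libraries. Relative to the P21 mean, the endothelial list had a mean log2 value of -0.71 in P21 replicate 5 and of 0.14 to 0.24 in the other P21 libraries, and of -1.05 and -0.91 in P56 replicates 2 and 4 and -0.26 to -0.10 in the other P56 libraries. Without P56 replicates 2 and 4, 3 endothelial genes fell and 2 rose, and the median was -0.10; without P21 replicate 5 and P56 replicate 3, 17 fell and the median was -0.71. Without P21 replicate 5 alone 9 endothelial genes fell and 18 collagen and basement membrane genes, and without P21 replicate 4 alone 7 of the latter.

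Red blood cell genes fell more than any other list in the plot of lists by library. Of 11 tested 6 fell and none rose (median log2 difference -1.53). Hba-a2, an alpha globin gene, had 10048, 24665, 25608, 11065 and 17766 normalized counts at P21 and 2782, 2309, 2488, 4495 and 2995 at P56. At P21 replicates 2 and 3, which share the code 16, were the highest and replicates 1 and 4 low, yet all lay above every P56 library. Hba-a2 fell by 2.50 (SE 0.27, adjusted p = 1.75e-04). Since Hba-a1 and Hba-a2 are near-identical copies, their sum was examined as well: it went from 31312 ± 13400 to 5161 ± 1499 (SD, n = 5; exact permutation p = 0.00794). Alas2, the haem synthesis enzyme of red cell precursors, fell by 2.37, from 836 ± 436 to 146 ± 31.9 (adjusted p = 8.86e-04). Blood left in the dissected brain was not measured, and its part was not tested. At P3 Hba-a2 had 2347 ± 2002 normalized counts (SD, n = 8), below the P21 level.

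Of 27 complement and antigen presentation genes 6 rose (22.2%, against 3.65% of all genes tested) and none fell (median log2 difference 0.28). H2-Eb1, a chain of MHC class II, had 48.8, 53.5, 42.1, 43.3 and 56.2 normalized counts at P21 and 92.8, 95.2, 89.1, 149 and 100.3 at P56, so the ages did not overlap, and it rose by 1.08 (SE 0.17, adjusted p = 0.00265). H2-Ab1, another class II gene, rose by 0.74 (adjusted p = 0.0136) and H2-T23, a non-classical class I gene, by 0.54 (adjusted p = 0.00356). Nlrc5, which switches on class I genes, rose by 1.69 (adjusted p = 0.0129), from 11.4 ± 5.72 to 39.2 ± 16.2 (SD, n = 5), with overlap between the ages. B2m, the light chain of class I, was not called (log2 difference 0.23, adjusted p = 0.0906), nor was the complement gene C1qa (0.33, adjusted p = 0.328). None of 24 microglial genes was called (median -0.04). The complement gene C4a, which is outside this list, was called (1.53, adjusted p = 0.00268), but it is a close copy of C4b, which was not (0.31, adjusted p = 0.161). Their sum went from 574 ± 75.1 to 775 ± 150 (SD, n = 5), a log2 difference of 0.42 (exact permutation p = 0.0159).

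Of 33 astrocyte genes 2 fell (6.06%, against 6.17% of all genes tested) and none rose (median log2 difference -0.19). The glutamate transporter gene Slc1a2 had 76464, 69962, 76196, 69837 and 48059 normalized counts at P21 and 45132, 42898, 42837, 39443 and 42317 at P56, and fell by 0.66 (SE 0.12, adjusted p = 0.00482). Gfap, the intermediate filament of astrocytes, was not called (-0.04, SE 0.21, adjusted p = 0.930), nor was the water channel gene Aqp4 (-0.42, adjusted p = 0.162). Of 21 choroid plexus genes 4 rose and none fell (median 0.41), but none was called when P21 replicate 1, P21 replicate 2, P56 replicate 1 or P56 replicate 5 was left out alone. The choroid plexus transporter gene Ttr was not called (0.31, adjusted p = 0.350).

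Of 79 cytosolic ribosomal protein genes 3 rose (3.80%, against 3.65% of all genes tested) and none fell (median log2 difference 0.24). The list had a mean log2 value of 0.71 and 0.60 in P56 replicates 2 and 4 and of -0.26 to 0.11 in the other P56 libraries, relative to the P21 mean. Without P56 replicate 3, 24 rose, and without P56 replicates 2 and 4 together 2 rose and 7 fell with a median of -0.02.

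The next genes were taken from the 15 that rose most in these same libraries, a choice that itself favours separation of the ages. Plin4, the lipid droplet coat protein perilipin 4 (chromosome 17, 56100591 to 56109803, minus strand, GRCm38), had 81.9, 57.5, 143, 38.2 and 16.7 normalized counts at P21 and 1144, 705, 483, 765 and 967 at P56. It rose by 3.84 in log2 units (SE 0.45, adjusted p = 3.29e-04), which is 14.3-fold. Il33, an alarmin cytokine stored in nuclei of mature oligodendrocytes and astrocytes (chromosome 19, 29925114 to 29960718), had 634, 592, 595, 606 and 454 at P21 and 1880, 2808, 1390, 2320 and 1487 at P56. It rose by 1.74 (SE 0.17, adjusted p = 1.36e-04), with the highest values in P56 replicates 2 and 4. Neat1, the noncoding RNA that builds nuclear paraspeckles (chromosome 19, 5824708 to 5845478, minus strand), had 975, 808, 758, 941 and 838 at P21 and 3286, 2503, 2473, 2516 and 3004 at P56. It rose by 1.67 (SE 0.10, adjusted p = 1.25e-06), and its spread within each age was small. In all 3 genes the lowest P56 library lay above the highest P21 library, and each kept its call in all 24 alternatives.

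Of the 19 genes in the glucocorticoid and hypoxia response list 2 rose, Plin4 and Fkbp5 (10.5%, against 3.65% of all genes tested). In that list 1 gene fell, and the median log2 difference was 0.26. Fkbp5, a co-chaperone induced by glucocorticoids, rose by 0.59, from 1537 ± 330 to 2274 ± 135 (SD, n = 5; adjusted p = 0.00912). Pkd2l1, the channel of cerebrospinal-fluid-contacting neurons, rose by 1.89, from 22.4 ± 4.63 to 86.2 ± 18.8 (adjusted p = 2.47e-04), and Inmt, an indole N-methyltransferase, by 1.93, from 17.9 ± 6.09 to 68.5 ± 13.3 (adjusted p = 8.85e-04). Xdh, the purine-degrading xanthine dehydrogenase, rose by 1.41, from 101 ± 39.1 to 270 ± 104 (adjusted p = 0.0172). The ages did not overlap in any of these 4 genes. Among those that fell most, Rab7b, a GTPase of late endosomes, fell by 1.90, from 330 ± 89.5 to 85.6 ± 14.0 (adjusted p = 1.86e-04), Mybpc3, cardiac myosin-binding protein C, fell by 1.98, from 845 ± 137 to 230 ± 101 (adjusted p = 8.51e-04), and the imprinted growth-suppressing RNA H19 by 1.73, from a mean of 125 to 36.5 (adjusted p = 0.00155). H19 had 2300 ± 373 at P3 (SD, n = 8), whereas Mybpc3 and Rab7b had 26.4 ± 23.5 and 45.6 ± 17.9 and were highest at P21.

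Some large differences lay in genes with near-identical copies. In all, 6 genes had at least 10 normalized counts in every P21 library and were listed at 0 in every P56 library, and none showed the reverse. They were the histone gene Hist2h2aa2, the ribosomal pseudogene Rps6-ps4, and Gm10222, Gm8203, Gm9762 and Gm28048, named for this pattern after their values were seen. Hist2h2aa2 had 346, 486, 391, 217 and 377 at P21, while its copy Hist2h2aa1 had 139, 260, 185, 334 and 23.9 at P21 and 465, 741, 309, 654 and 512 at P56. Their sum was 552 ± 128 at P21 and 536 ± 168 at P56 (SD, n = 5; exact permutation p = 0.794). Likewise Rps6 was called higher (log2 difference 0.60, adjusted p = 0.0213; 0.0514 without P21 replicate 4), while its sum with Rps6-ps4 had a log2 difference of 0.33 (exact permutation p = 0.0873). Ppp1ccb was called higher (2.45, adjusted p = 0.0220; 0.0538 without P21 replicate 2), while its sum with the parent gene Ppp1cc had a log2 difference of 0.05 (exact permutation p = 0.5). Of values under 6, 27.1% to 43.4% lay within 0.05 of a whole multiple of the lowest step in the P21 libraries and 13.5% to 18.2% in the P56 libraries. In the heterozygote-labelled libraries these shares were 29.9% to 51.7% at P21 and 14.1% to 21.2% at P56. Hist2h2aa2 and Rps6-ps4 were called lower there too (adjusted p = 0.0265 and 0.0184). The part of read assignment between copies in these results was not tested.

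The heterozygote-labelled libraries gave the same age comparison in other mice. There 2245 of 17337 genes (12.9%) were called, 872 higher (5.03%) and 1373 lower (7.92%). Of the 1681 wild-type calls tested in both, 1652 (98.3%) had the same sign in the heterozygote-labelled brains, against 75.3% of the genes not called in wild-type. For 976 genes the call was also made there with the same sign, which is 58.1% of the wild-type calls and 43.6% of the 2237 heterozygote-labelled ones, and no gene was called in opposite directions. The wild-type calls had a median difference of 0.50 in wild-type brain and of 0.34, in the wild-type direction, in the other libraries. The calls were selected on the wild-type libraries. Low values lay on steps more often at P21 in both sets of mice, so their likeness does not tell age from processing.

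Genes chosen in the heterozygote-labelled libraries alone separated the wild-type ages too. The 868 genes called higher there and tested in both had a mean log2 value, relative to the P21 heterozygote-labelled mean, of -0.09 to 0.09 in the P21 wild-type libraries and of 0.22 to 0.63 in the P56 wild-type libraries. For the 1369 genes called lower there it was 0.0013 to 0.04 and -0.55 to -0.42. P56 wild-type replicate 3 had moved least and replicate 2 most in both sets.

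Most of the main lists were alike in direction in those mice. There 21 of 25 cholesterol genes fell (median log2 difference -0.46), 16 of 24 newly formed oligodendrocyte genes (-0.51), 27 of 46 immature neuron genes (-0.34), 23 of 39 collagen and basement membrane genes (-0.39) and 14 of 34 endothelial genes (-0.35). Of 35 myelin genes 17 fell and 7 rose there (-0.45, against -0.79 in wild-type brain). Of 11 red blood cell genes 6 fell (-0.76, against -1.53). Of 33 astrocyte genes 3 fell and 3 rose (0.0080, against -0.19). Plin4 rose by 3.58 (adjusted p = 0.00109), Il33 by 2.06 (adjusted p = 1.54e-09) and Neat1 by 1.38 (adjusted p = 2.82e-04). Some wild-type calls were not made there. Col24a1 had a log2 difference of -4.5e-04 (adjusted p = 0.999) and C4a of 0.09 (adjusted p = 0.859). Col11a1 had 0.24 (adjusted p = 0.389), Col27a1 0.11 (adjusted p = 0.734) and Mbp -0.49 (adjusted p = 0.0557). Some genes not called in wild-type brain were called there: Grin2b (-0.59, adjusted p = 0.0186), Pdgfra (-0.34, adjusted p = 0.00703), B2m (0.29, adjusted p = 0.0404), C1qa (0.50, adjusted p = 0.0252) and C4b (0.63, adjusted p = 7.81e-04). Grin2a, Gria1, Slc12a5, Pvalb, Gfap, Aqp4 and Ttr were not called there either. In the heterozygote-labelled brains 34 of 79 ribosomal protein genes rose.

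**Figure D5:**
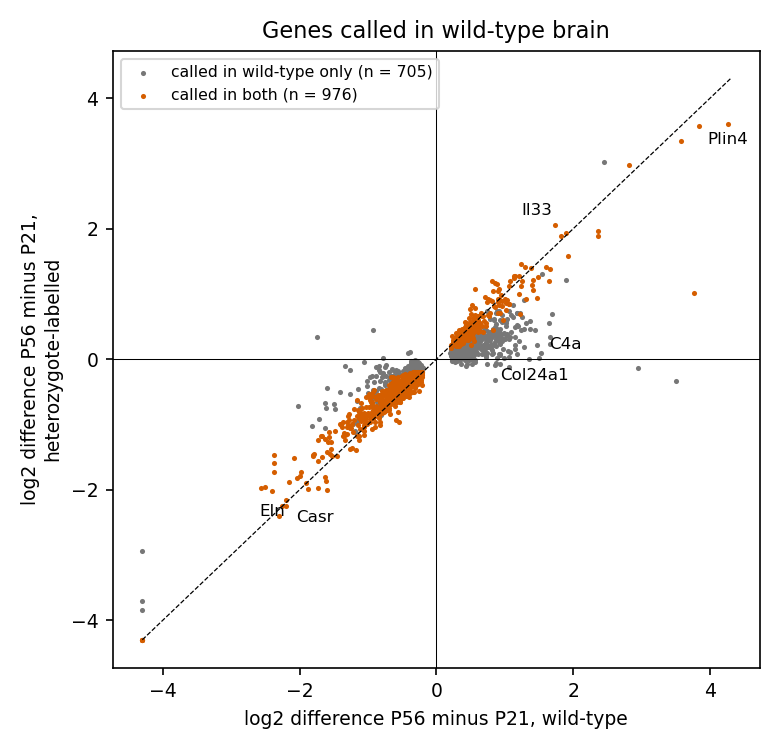
Log2 difference P56 minus P21 of the 1681 genes called in wild-type brain and tested in both, in wild-type libraries (x axis) and heterozygote-labelled libraries (y axis); orange points (976) were called in both, grey points (705) in wild-type only, and the dashed line marks equal values. Most points lie in the upper right or lower left quadrant, Col24a1 and C4a lie near 0 on the y axis, and 7 genes beyond 4.3 are drawn at the edge.

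The difference between the genotypes in the change with age was tested as an interaction over 17899 genes. By limma no gene passed, 522 genes (2.92%) had an unadjusted p under 0.05, and 2 passed without the variance trend and 1 with library quality weights. The smallest p belonged to Prss57, a serine protease, with a log2 difference of 0.90 in wild-type and -1.47 in heterozygote-labelled brains (interaction adjusted p = 0.0925). Col24a1 had an interaction of -1.36 (unadjusted p = 0.00473, adjusted p = 1.00), so its differing values in the 2 sets of mice were not called as a difference.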

How the data were processed

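RNA of whole brain was sequenced after library preparation with a TruSeq kit that does not mark strand, so reads of overlapping genes on opposite strands could not be separated. Per the submitters' processing notes, Salmon 1.1.0, R 3.6.2, DESeq2 1.26.0 and genome build GRCm38 were used, with no roles given. The values the authors deposited are normalized signal values per gene, not raw counts: 0.848% of those in the 10 libraries were whole, all of them 0, and whole reads could not be recovered, so the depth is unknown and the spread between libraries is the measure of precision. The sources used here do not give the annotation release or any gene filter. Of 19164 genes, 19150 identifiers matched GENCODE M21, 14 did not, and 22 symbols were shared by several identifiers.

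Groups were taken from the labels. Genes with a value of at least 10 in 5 libraries were tested on log2(value + 1) with limma 3.58.1 in R 4.3.3 (trend and robust options, two-sided, Benjamini-Hochberg over all genes tested). Adjusted p-values without another name come from this tool, and log2 differences are on this scale, which understates the change of low genes. The design also held a count test for raw counts, which did not apply. The procedure was tested on simulated data. The 51 gene lists and the comparison were chosen with earlier results of these data known, and no set test was run. Named genes are, among calls with a mean of at least 20, the 15 largest differences in each direction, the 4 members of smallest p of a list, a panel, and the 10 of smallest interaction p, apart from those said to be chosen after their values were seen; some genes the rule takes in are not reported here. The same replicate number at both ages did not pair the libraries, as the correlation of their deviations was -0.10 to 0.13. The alternatives were another added value, filter, scaling and variance model, removal of a gene length trend, a fit of all 36 libraries, a replicate block and each library left out, and after the data were seen 2 pairs of libraries left out together.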

Additional observations from a re-analysis of the deposited data

Results flagged for a closer look

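Among 90 genes and 22 lists looked at in the P21 and in the P56 libraries, 28 of 224 sets of 5 held a library whose gap to its nearest neighbour was more than 0.71 of the whole range, where chance gives about 1 in 20. P21 replicate 5 was the library in 20 of them. It was low in oligodendrocyte genes, with 956 normalized counts of Enpp6, 5252 of Ugt8a, 5814 of Gsn and 1050 of Pdgfra. It was also low in Sema6a (2023), the vessel gene Mcam (1029), B2m (2101), Il33 (454), Slc1a2 (48059) and Gfap (7533), and high in the tubulin gene Tubb2a (36404). In mean log2 value relative to the P21 mean it was low in newly formed oligodendrocytes (-0.37), myelin and mature oligodendrocytes (-0.53), oligodendrocyte precursors (-0.37), endothelium (-0.71), pericytes (-0.44), collagens (-0.40), astrocytes (-0.48), microglia (-0.41) and cerebellar granule cells (-0.19). P56 replicate 3 was low in oligodendrocyte precursor genes (-0.80) and high in presynaptic genes (-0.0059) and in Myt1l (8115).

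The other 5 lay in P21 replicates 1 and 3 and P56 replicates 4 and 5. Erc1 was low in P56 replicate 5 (1861), H2-Eb1 high in P56 replicate 4 (149) and Fkbp5 high in P21 replicate 3 (2109). Gh, the growth hormone gene of the pituitary, was high in P21 replicate 1 (378) and in P56 replicate 5 (15379).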

How the results depend on the processing

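The 1688 calls moved by more than 1.5 times to 2999 with library quality weights, 3565 in a fit of all 36 libraries and 230 with a log2 difference of at least 1, and stayed within 1.5 times under the other planned scalings, added values, filters and variance models. Leaving out 1 library gave 874 to 2315 calls, with 874 to 1084 without any 1 of P21 replicates 1 to 4 or P56 replicate 5. In alternatives chosen after the data were seen, leaving out P56 replicates 2 and 4 gave 2538 calls, and leaving out P21 replicate 5 with P56 replicate 3 gave 2532. With the replicate block 1250 genes were called, 1157 of them also without it, 1864 were called in the heterozygote-labelled libraries and 0 in the interaction; the replicate numbers do not pair the libraries. The 2245 calls in the heterozygote-labelled libraries were 1498 to 2537 with 1 library left out. The interaction gave 2 calls without the trend and 1 with library quality weights. Of 73 called genes of the text, 65 kept an adjusted p under 0.05 in every alternative run. The minimum log2 difference of 1 leaves the adjusted p as it was, so it could not lower this count. Genes that were not called turned sign: Gria1 to 0.026 with quantile normalization and 0.0097 with a common library total; Slc12a5 to 0.076 and 0.038 under the same scalings, 0.0062 with quality weights, 0.012 with the length trend removed and 0.13 without P56 replicates 2 and 4 (-0.084 to 0.044 over single libraries left out); Gfap to 0.0072 and 0.013 under those scalings and 0.060 without P21 replicate 5 and P56 replicate 3 (-0.20 to 0.15); Grin2a to 0.25 without P56 replicates 2 and 4 (-0.27 to 0.065); Pvalb to -0.13 there. The cause was not tested. The unknown depth limits low genes most.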

Other observations

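Gh, growth hormone, which brain tissue itself does not make in quantity, had 378, 0, 0, 0.927 and 32.6 normalized counts in the P21 libraries and 32.2, 558, 1434, 1.10 and 15379 in the P56 libraries. It was not called (adjusted p = 0.190). None of the 5 tested pituitary and pineal genes was called.

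Of 13 mitochondrially encoded genes 2 rose (15.4%, against 3.65% of all genes tested) and none fell (median log2 difference 0.04). Of 72 nuclear oxidative phosphorylation genes none rose and 1 fell (1.39%, against 6.17% of all genes tested), with a median of 9.8e-05. The subunit genes mt-Nd3 (3778 ± 221 and 7591 ± 2368, SD, n = 5) and mt-Nd4l (17984 ± 1846 and 26603 ± 3492) rose by 0.95 (adjusted p = 0.00551) and 0.56 (adjusted p = 0.00523) on the log2 scale. The immediate-early gene Jun, which neuronal activity and stress induce, had 2516, 2356, 2356, 2260 and 2039 normalized counts at P21 and 1751, 1650, 1420, 1681 and 1790 at P56, and fell by 0.48 (adjusted p = 0.00341). It was the 1 gene that fell among 27 immediate-early genes (3.70%, against 6.17% of all genes tested). In that list 1 gene rose (3.70%, against 3.65%).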
